A study of Mus musculus with 18 samples.

Results

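The 10 genes Axin2, Nkd1, Notum, Wif1, Apcdd1, Lgr5, Rnf43, Znrf3, Lef1 and Sp5 were taken by symbol from the 55450 genes of the tables as known targets and feedback regulators of Wnt/beta-catenin signaling. They were chosen by name, with earlier results of these data known, and were described together with the hair keratin level. That level is the mean log2 CPM (CPM are counts scaled to library size, here with TMM factors) of Tchh, the trichohyalin gene of the hair root sheath, and Krt71, a keratin gene of the inner root sheath. The relation of the genes to the hair keratin level is therefore given as a description, without a test. RNA was sequenced from 18 spontaneous mammary tumors, each from its own mouse per the series' design text. All 18 genotypes include MMTV-Cre(+), a mouse mammary tumor virus promoter driving Cre mainly in mammary epithelial cells, together with Pikca(H1047R, het), 1 copy of an activated Pik3ca. The groups differ in Cbfb: 14 tumors were Cbfb(het), 3 were Cbfb(wt) and 1 was Cbfb(homo). The mice were untreated, and the labels state neither their age nor how the Cbfb allele was changed.

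In the canonical Wnt pathway a ligand binds a Frizzled receptor with an LRP coreceptor, beta-catenin escapes degradation, and with TCF/LEF proteins it switches on target genes. Several targets act back on the pathway: Axin2 and Nkd1 inside the cell, Notum, Wif1 and Apcdd1 outside it or at its surface, and Rnf43 and Znrf3 by removing Frizzled from the surface. Lgr5, a receptor for R-spondins, counteracts the latter pair. In skin, Wnt signaling is known for its role in forming hair follicles and the hair shaft, where LEF1 acts on hair keratin genes, and in the mammary gland for its role in stem and progenitor cells.

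Promoter sequences are shown for 3 of the genes and for Tchh, because the genes moved together with hair genes across tumors. RefSeq windows of GRCm38.p6 were found for 6 of the 10 genes, with 10 start sites in all. The 250 bases before each start were searched on both strands for 4 TCF/LEF core sequences, CTTTG followed by AA, AT, TA or TT, of which at most 1 can match at a given place on a strand. Matches are in capitals.
Axin2, chr11:108920099-108920348, plus strand: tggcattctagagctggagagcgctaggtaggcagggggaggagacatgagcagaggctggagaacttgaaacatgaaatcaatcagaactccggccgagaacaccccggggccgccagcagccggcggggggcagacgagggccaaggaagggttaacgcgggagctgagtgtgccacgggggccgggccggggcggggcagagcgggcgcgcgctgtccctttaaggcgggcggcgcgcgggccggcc
Lef1, first of 4 starts, chr3:131110047-131110296, plus strand: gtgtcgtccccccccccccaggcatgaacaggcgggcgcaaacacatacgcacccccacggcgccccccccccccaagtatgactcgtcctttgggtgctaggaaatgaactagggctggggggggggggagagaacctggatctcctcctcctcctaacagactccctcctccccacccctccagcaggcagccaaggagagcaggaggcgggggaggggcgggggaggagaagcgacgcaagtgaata
Sp5, chr2:70474673-70474922, plus strand: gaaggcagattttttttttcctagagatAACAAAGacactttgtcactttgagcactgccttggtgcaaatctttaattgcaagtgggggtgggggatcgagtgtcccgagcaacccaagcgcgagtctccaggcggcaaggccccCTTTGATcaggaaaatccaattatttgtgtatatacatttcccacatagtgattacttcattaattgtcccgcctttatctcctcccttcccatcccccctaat
Tchh, chr3:93442080-93442329, plus strand: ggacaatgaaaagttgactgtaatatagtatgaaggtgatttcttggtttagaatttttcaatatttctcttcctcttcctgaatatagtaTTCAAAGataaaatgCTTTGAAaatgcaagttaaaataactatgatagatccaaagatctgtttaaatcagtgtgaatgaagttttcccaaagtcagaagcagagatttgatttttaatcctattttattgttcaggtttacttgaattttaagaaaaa

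Sp5 held 2 matches, beginning 222 and 104 bases before the start, and Tchh held 2, beginning 159 and 144 bases before it. Axin2 and the first start of Lef1 held none, and the fourth start of Lef1, inside the gene, held 1. In all, 2 of the 10 start sites of the genes held a match (20%), against 14.8% of all 32851 start sites in the table. These are matches of letters in a short window, not measured binding sites.

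The libraries held between 33210207 and 40974130 rounded expected counts. Cbfb, the targeted gene, was not lower in Cbfb(het) than in Cbfb(wt) tumors. It was at 5.75 ± 0.61 log2 CPM in Cbfb(het) (SD, n = 14) and 5.12 ± 0.83 in Cbfb(wt) (SD, n = 3). The Cbfb(homo) tumor, at 4.20, was the lowest of the 18, but the lowest Cbfb(wt) tumor was close to it at 4.23. Directions between Cbfb(het) and Cbfb(wt) below are those of the labels. The libraries of Cbfb(het) 10 and 14 were nearly alike: over 16196 genes their counts differed by a chi-square of 4.18 per gene, while the next closest pair of tumors stood at 85.9. They differed by more than sampling noise and are kept as separate tumors, but whether both came from 1 tumor or mouse is not known, and n = 14 may count it more than once. Results were also computed without tumor 10. In 5 tumors the epithelial gene Epcam was low, 5.60 to 133 TPM (an abundance scaled for gene length and library size), against 331 to 666 TPM in the other 13. These 5, Cbfb(het) 1, 10, 12 and 14 and Cbfb(wt) 2, held 2771 to 3846 TPM of Vim, the mesenchymal filament gene. In bulk RNA, fewer cells of a type and less RNA per cell cannot be told apart.

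The genes differed widely in level and in spread. By the median over 18 tumors in TPM, which allows genes to be compared, Wif1 was highest (41.4), followed by Apcdd1 (16.3), Axin2 (14.8), Rnf43 (12.95), Notum (5.63), Znrf3 (4.035), Nkd1 (3.805), Lgr5 (2.935), Lef1 (1.365) and Sp5 (0.145). Across tumors 9 of the 10 had a standard deviation of at least 1.43 on the log2 CPM scale, and Znrf3 had 0.90, while the median among genes averaging 1 log2 CPM or more was 0.48. Wif1 (2.95) and Notum (2.89) spread most of the 10. A tumor was sequenced once, so the order of neighboring tumors has no error of its own. Between the nearly alike libraries the 10 genes differed by 0.04 to 0.64 log2, with Sp5, at 1 and 0 counts, differing most.

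**Figure D1:**
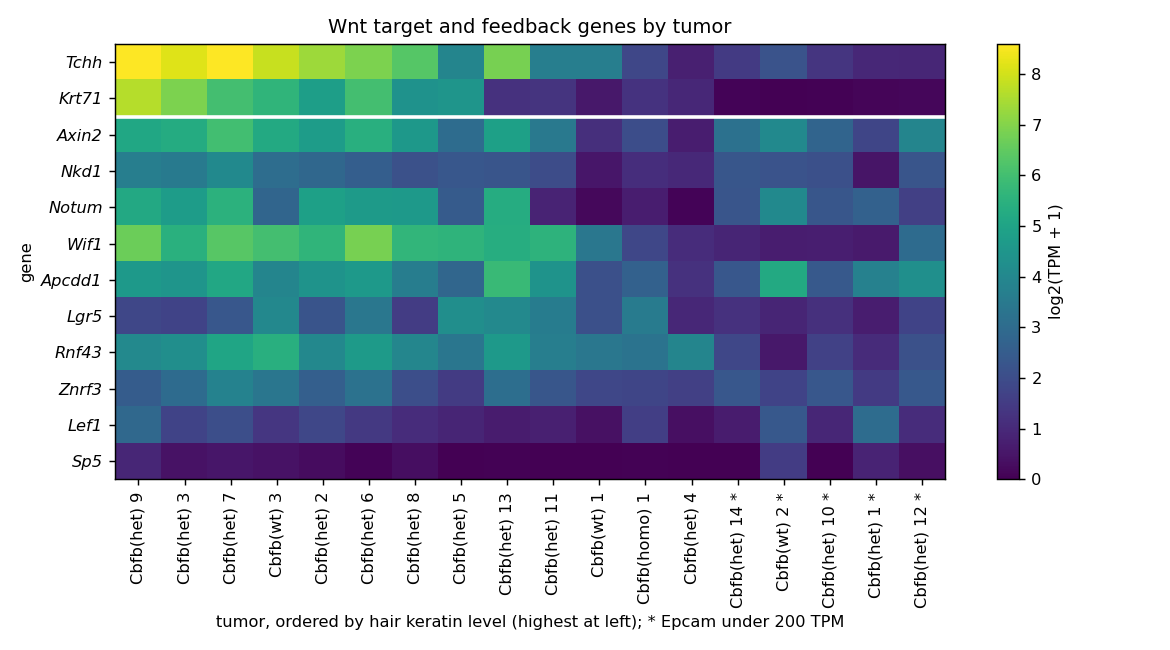
Level of Tchh, Krt71 and the 10 Wnt target and feedback genes in each of 18 tumors as log2(TPM + 1), tumors ordered by hair keratin level from the highest at left; an asterisk marks Epcam under 200 TPM. Axin2, Notum and Wif1 are bright in the tumors at left, where Axin2 runs from 23.0 to 62.5 TPM in the 7 leftmost tumors, and Sp5 is brightest in Cbfb(wt) 2.

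The hair keratin level itself ranged from -0.54 to 9.53 log2 CPM and fell into separate runs. With a break at any gap above 1 log2, 5 tumors lay between -0.54 and -0.05, 4 between 1.29 and 3.08, 2 at 4.66 and 5.46, and 7 between 7.26 and 9.53. The lowest run was exactly the 5 tumors low in Epcam. In these Krt71 had 0 to 4 counts, so the prior count of 2 set much of their level. Tchh alone did not set them apart. Epcam-rich Cbfb(het) 4 held 0.67 TPM of Tchh, and Epcam-low Cbfb(wt) 2 held 3.62, above Cbfb(homo) 1 at 2.52. The highest run held Cbfb(het) 2, 3, 6, 7, 8 and 9 and Cbfb(wt) 3, with 78.5 to 385 TPM of Tchh and 20.1 to 197 TPM of Krt71. Cbfb(het) 13 held 114 TPM of Tchh but 1.36 TPM of Krt71. Krt71 had 0 counts in Cbfb(wt) 2, which allows up to 3 counts, or 0.0746 CPM. Intervals of this kind cover counting error only.

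Axin2, a scaffold of the beta-catenin destruction complex and a general Wnt target (ENSMUSG00000000142.15, chromosome 11, 108920349 to 108950783 in GRCm38, plus strand), ran in Cbfb(het) tumors from 0.62 through a median of 18.4 to 62.5 TPM. In the Cbfb(wt) tumors it was at 1.24, 15.8 and 36.05 TPM, and in the Cbfb(homo) tumor at 3.11. The 7 highest levels belonged to the 7 tumors of the highest hair keratin run, and their values, from 23.0 TPM, overlapped with Cbfb(het) 13 at 28.3 TPM on this scale. Its lowest level was in Cbfb(het) 4, an Epcam-rich tumor with 67 counts. The 5 Epcam-low tumors stood at 2.45 to 15.8 TPM.

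Nkd1, which binds Dishevelled and dampens the Wnt signal (ENSMUSG00000031661.12, chromosome 8, 88521354 to 88594884, plus strand), ran in Cbfb(het) from 0.40 through a median of 3.87 to 15.8 TPM. Cbfb(wt) tumors stood at 0.44, 3.60 and 7.33 TPM and the Cbfb(homo) tumor at 1.18. On log2 CPM the 7 tumors of the highest hair keratin run again held the 7 highest levels. Among the Epcam-low tumors 4 were close together at 3.26 to 3.92 TPM, and Cbfb(het) 1 stood at 0.40.

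Notum, a secreted enzyme that removes the lipid from Wnt ligands (ENSMUSG00000042988.10, chromosome 11, 120653788 to 120661175, minus strand), had the widest range of log2 CPM among the 10, 9.33. In Cbfb(het) tumors it ran from 0.06 TPM, which was 1 count, through a median of 14.7 to 45.2 TPM. The Cbfb(wt) tumors stood at 0.13, 15.7 and 5.96 TPM and the Cbfb(homo) tumor at 0.60. Epcam-rich tumors lay at both ends: Cbfb(het) 4, Cbfb(wt) 1, Cbfb(homo) 1 and Cbfb(het) 11 held at most 0.81 TPM, while Cbfb(het) 7, 8 and 9 held 45.2, 24.2 and 35.04. Cbfb(wt) 3 was the lowest of the highest hair keratin run, and Cbfb(het) 13, outside that run, held 38.9. Antisense genes overlap Notum, and the strand setting of the counting is not given in the sources used here.

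Wif1, a secreted protein that binds Wnt ligands (ENSMUSG00000020218.11, chromosome 10, 121033960 to 121100650, plus strand), ran in Cbfb(het) from 0.53 through a median of 44.8 to 112 TPM. The Cbfb(wt) tumors stood at 9.63, 0.60 and 63.6 TPM and the Cbfb(homo) tumor at 2.57. Unlike Axin2 and Notum, it was low in all 5 Epcam-low tumors, at 0.53 to 7.03 TPM. The highest hair keratin run lay at 43.1 to 112 TPM, with Cbfb(het) 5 (47.5) and Cbfb(het) 11 (46.4) reaching into that range.

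Apcdd1, a membrane inhibitor of Wnt signaling known from hereditary hair loss (ENSMUSG00000071847.13, chromosome 18, 62922231 to 62961179, plus strand), ran in Cbfb(het) from 1.32 through a median of 19.3 to 55.1 TPM. The Cbfb(wt) tumors stood at 3.27, 36.2 and 14.2 TPM and the Cbfb(homo) tumor at 5.32. Its highest value was in Cbfb(het) 13. The Epcam-low Cbfb(wt) 2 exceeded every tumor of the highest hair keratin run in TPM, whose values were 11.4 to 34.9. On log2 CPM it ranked 5 of 18 (6.49), below Cbfb(het) 7 (6.77), 9 (6.69) and 2 (6.54) of that run.

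Lgr5, the R-spondin receptor and stem cell marker (ENSMUSG00000020140.15, chromosome 10, 115450311 to 115587780, minus strand), followed another order. In Cbfb(het) tumors it ran from 0.60 through a median of 2.46 to 18.1 TPM, in Cbfb(wt) it stood at 3.30, 0.85 and 15.2, and in Cbfb(homo) at 10.8. The highest values were in Cbfb(het) 5 (18.1) and Cbfb(het) 13 (15.6), of intermediate hair keratin level, and Cbfb(wt) 3. Of the 7 highest levels, 3 belonged to the highest hair keratin run, which spread from 1.87 to 15.2 TPM. All 5 Epcam-low tumors held at most 2.35 TPM.

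Rnf43 and Znrf3 encode related ubiquitin ligases that clear Frizzled receptors. Rnf43 (ENSMUSG00000034177.15, chromosome 11, 87662722 to 87735539, plus strand) ran in Cbfb(het) from 1.06 through a median of 14.3 to 32.3 TPM, with 9.73, 0.47 and 42.1 in Cbfb(wt) and 8.68 in Cbfb(homo). Every Epcam-low tumor, at 0.47 to 3.41 TPM, lay below every Epcam-rich tumor, of which the lowest was the Cbfb(homo) tumor. Znrf3 (ENSMUSG00000041961.14, chromosome 11, 5276324 to 5444847, minus strand) varied least: 1.72, 4.13 and 13.05 TPM as the lowest, median and highest of Cbfb(het), 2.52, 2.28 and 9.26 in Cbfb(wt) and 2.48 in Cbfb(homo). Its Epcam-low values, 1.72 to 4.20 TPM, overlapped with those of Epcam-rich tumors. Both genes were high in Cbfb(het) 7 and Cbfb(wt) 3.

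Lef1, the TCF/LEF factor that pairs with beta-catenin (ENSMUSG00000027985.14, chromosome 3, 131110471 to 131224356, plus strand), ran in Cbfb(het) from 0.28 through a median of 1.125 to 7.24 TPM, with 0.32, 4.16 and 1.59 in Cbfb(wt) and 2.04 in Cbfb(homo). Its highest value was in the Epcam-low Cbfb(het) 1, where Axin2 stood at 2.45 and Nkd1 at 0.40 TPM. The next highest were Cbfb(het) 9 (6.45), with the highest hair keratin level, and the Epcam-low Cbfb(wt) 2. Antisense genes overlap Lef1 and Axin2, and other genes on the opposite strand overlap Lgr5, Rnf43 and Tchh.

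Sp5, a zinc finger factor induced directly by Wnt signals (ENSMUSG00000075304.2, chromosome 2, 70474923 to 70477729, plus strand), was the lowest of the 10, with at most 93 counts. In Cbfb(het) it ran from 0 through a median of 0.145 to 0.90 TPM, with 0.02, 1.91 and 0.35 in Cbfb(wt) and 0.04 in Cbfb(homo). Cbfb(wt) 2 was the highest, and Cbfb(het) 9 and Cbfb(het) 1, the tumors high in Lef1, followed with 53 and 37 counts. Cbfb(het) 4, 11 and 14 had 0 counts, which allows up to 3, or 0.0755 to 0.0798 CPM.

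**Figure D2:**
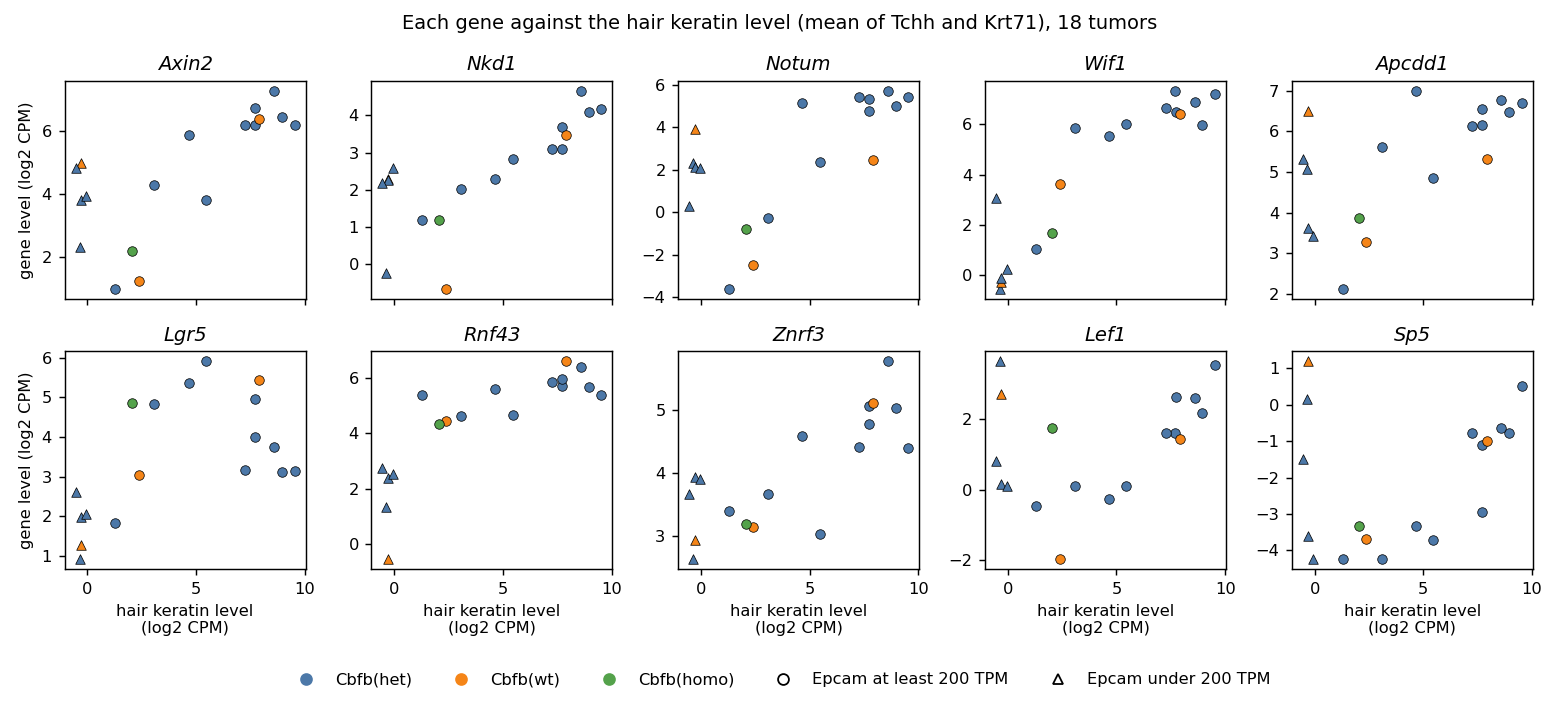
Level of each gene (log2 CPM, vertical) against the hair keratin level (mean log2 CPM of Tchh and Krt71, horizontal) in 18 tumors, colored by Cbfb genotype, with triangles for Epcam under 200 TPM. The triangles stand at the left edge, low for Wif1, Lgr5 and Rnf43 and spread over most of the range for Lef1 and Sp5.

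Most of the genes were higher in tumors with a high hair keratin level, while the rank relations of Lef1, Sp5 and Lgr5 differed most with and without the Epcam-low tumors. The increase was not steady: from the lowest run, the Epcam-low tumors, to the next, the median level was lower for 7 of the 10 genes, as for Axin2 (8.17 to 2.175 TPM), Notum (3.93 to 0.365 TPM), Apcdd1 (12.75 to 4.295 TPM) and Nkd1 (3.60 to 1.08 TPM), and also for Znrf3, Lef1 and Sp5. It was higher for Wif1, Lgr5 and Rnf43. Over all 18 tumors, Spearman's rho was 0.87 for Wif1, 0.82 for Rnf43, 0.82 for Nkd1, 0.72 for Znrf3, 0.71 for Axin2, 0.67 for Notum and 0.59 for both Apcdd1 and Lgr5. It was 0.30 for Sp5 and 0.25 for Lef1. Thus 8 of 10 genes had a rho of at least 0.5, where 21.0% of the 20328 genes kept did, and none had a rho of -0.5 or less, where 17.2% did. The median rho was 0.69 over the 10 and 0.03 over all genes kept. Since the hair keratin levels fall into separate runs, these values mainly order the runs.

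Within the 13 Epcam-rich tumors, a division made after the values were seen, Lef1 stood at 0.75 and Sp5 at 0.84, while Lgr5 stood at 0.03. Nkd1 was at 0.96, Axin2 at 0.81, Wif1 at 0.79, Notum at 0.76, Apcdd1 at 0.69, Znrf3 at 0.68 and Rnf43 at 0.60. So 9 of 10 had a rho of at least 0.5, against 13.7% of all genes, with Lgr5 the exception. These 13 tumors still form runs of 4, 2 and 7. Within the 7 tumors of the highest run alone, 4 of 10 had a rho of at least 0.5, against 19.9% of genes: Nkd1 at 0.86 and Apcdd1, Lef1 and Sp5 at 0.57 each. There Axin2 was at -0.11, Notum at 0.07, Wif1 at -0.14, Znrf3 at -0.04, Rnf43 at -0.43 and Lgr5 at -0.50, the last at the level that 14.8% of genes reached. With 7 tumors such values are imprecise.

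**Figure D3:**
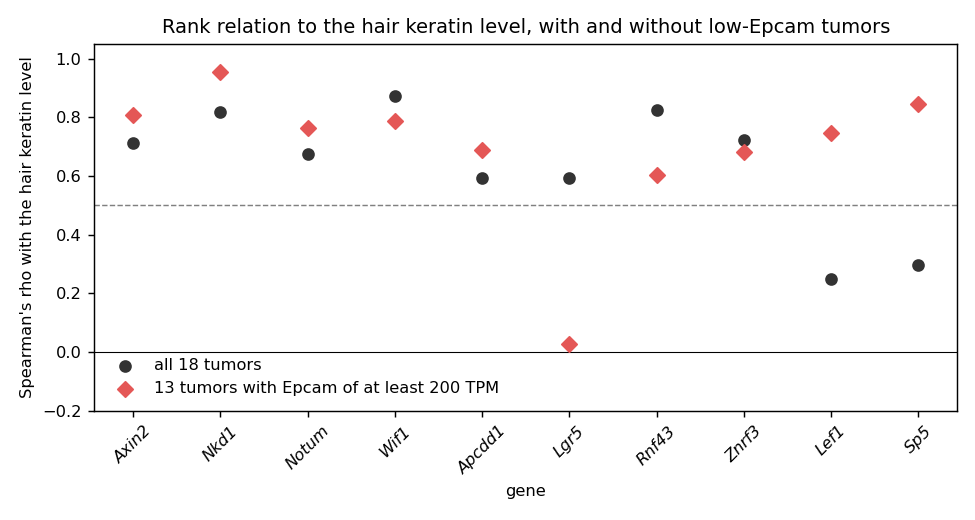
Spearman's rho of each gene with the hair keratin level, over all 18 tumors (circles) and over the 13 with Epcam of at least 200 TPM (diamonds), with a dashed line at 0.5. Lef1 moves from 0.25 to 0.75 and Sp5 from 0.30 to 0.84, while Lgr5 moves from 0.59 to 0.03.

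Markers of several cell types also varied with the hair keratin level. All 7 luminal epithelial markers had a rho of at least 0.5 with it over 18 tumors, where 21.0% of all genes did. Their summed level was 121 to 1082 TPM in the 5 Epcam-low tumors and 2518 to 5997 TPM in the other 13. All 7 mesenchymal markers had a rho of -0.5 or less, where 17.2% of all genes did. Their sums were 4874 to 5847 TPM in the Epcam-low tumors, against 170 to 2121 TPM in the others. No luminal or mesenchymal marker was at 0 in any tumor. Among the 10 genes, the rank relation to Epcam over 18 tumors was closest for Rnf43 (rho 0.73) and Wif1 (0.69), and was -0.14 for Lef1 and 0.01 for Sp5. Rnf43 had a rho of -0.89 with Vim, larger in size than its 0.82 with the hair keratin level, and Wif1 had -0.76. In the 13 Epcam-rich tumors, 2 of 7 luminal and 1 of 7 mesenchymal markers passed 0.5 in size. There 13.7% of all genes passed upward and 11.8% downward. The rho of Axin2, Nkd1, Notum, Apcdd1, Lef1 and Sp5 with the hair keratin level was larger there than over all 18. It was smaller for Lgr5 (0.03 against 0.59), Rnf43 (0.60 against 0.82), Wif1 (0.79 against 0.87) and Znrf3 (0.68 against 0.72). Dermal papilla markers, of skin mesenchyme, had 1 of 7 at 0.5 or more and 3 of 7 at -0.5 or less, and Corin was at 0 TPM in 13 tumors. Melanocyte markers summed to at most 1.99 TPM, with Tyr at 0 in 17 tumors. Among basal markers 1 of 7 passed in each direction, among fibroblast markers 5 of 7 passed downward over 18 tumors and 0 in the 13, and among adipocyte markers 1 of 7 passed upward over 18 and 4 in the 13. Endothelial markers passed downward in 5 of 6 cases over 18 tumors and 1 in the 13, and markers of interfollicular and squamous keratinocytes passed upward in 4 of 7 cases over 18 and 0 in the 13. The part of any of these cell types, luminal and mesenchymal ones included, in the relation was not tested.

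The genes also varied together, but the share of such pairs among other genes was not computed. The counts of pairs below therefore do not show whether these genes varied together more than other genes did. Of the 45 pairs, 28 had a rho of at least 0.5 over 18 tumors, with a median of 0.56, and 2 were negative, Lgr5 with Lef1 (-0.18) and with Sp5 (-0.17). The closest pairs were Axin2 with Nkd1 (0.87), Lef1 with Sp5 (0.86) and Notum with Apcdd1 (0.86). In the 13 Epcam-rich tumors 34 of 45 pairs reached 0.5. There Axin2 and Znrf3 (0.91) and Rnf43 and Znrf3 (0.90) were closest, while all 9 pairs with Lgr5 lay between -0.13 and 0.19. Lef1, which had a rho of 0.01 with Rnf43 and 0.13 with Znrf3 over 18 tumors, had 0.32 and 0.50 in the 13.

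**Figure D4:**
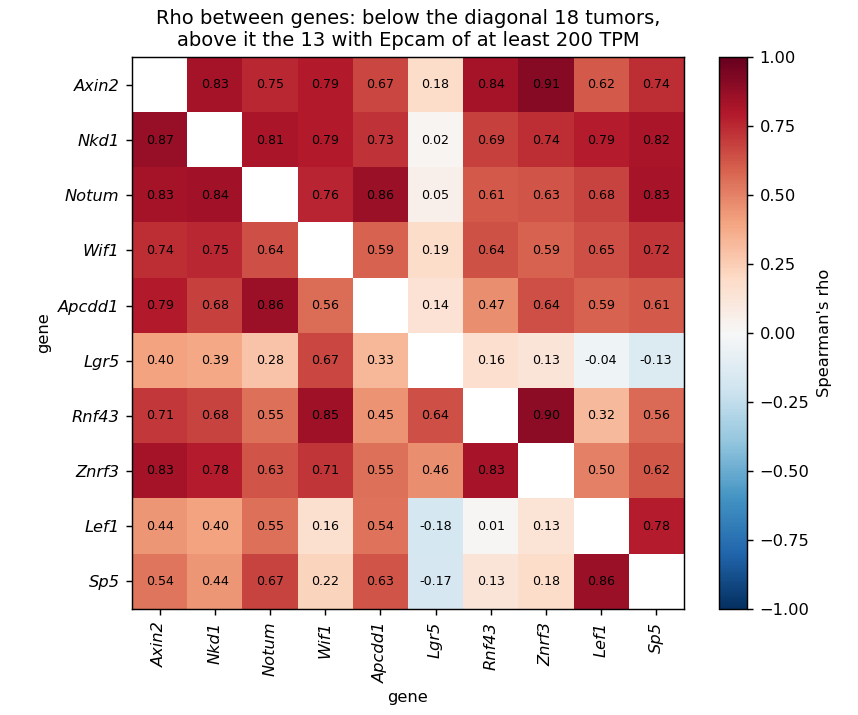
Spearman's rho between each pair of the 10 genes, below the diagonal over 18 tumors and above it over the 13 tumors with Epcam of at least 200 TPM. The row and column of Lgr5 are pale above the diagonal (-0.13 to 0.19), and the cell of Lef1 with Sp5 is dark on both sides (0.86 and 0.78).

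Among the other genes of the pathway, more passed upward than downward over 18 tumors in every list except that of R-spondins and LGR receptors. That list had 1 upward and 2 downward of 6. Among all genes, too, more passed upward (21.0%) than downward (17.2%), so this order is not particular to these lists. In the 13 Epcam-rich tumors the Frizzled receptors and coreceptors had 0 upward and 4 downward of 15, against 13.7% and 11.8% of all genes. Of 19 other Wnt targets kept, 8 had a rho of at least 0.5 and 3 of -0.5 or less, against 21.0% and 17.2% of all genes. Tnfrsf19, a receptor gene of the TNF family (rho 0.85, 0.31 to 43.3 TPM), Bambi, a decoy receptor for TGF-beta signals (0.79), and Dkk4, a secreted LRP antagonist (0.76, at most 0.76 TPM), were at the upper end. Cdx1 (-0.68, at most 0.44 TPM), Eda (-0.65) and Trabd2b, an inhibitory protease of Wnt proteins (-0.64), were at the lower end. The widely used targets Myc and Ccnd1 stood at 0.52 and 0.30. The filter kept a gene with enough counts in 1 tumor. Genes near 0 elsewhere, as Dkk4 (median 0.0 TPM), could therefore pass through the tumors where they are high. Their high rho is no separate evidence, in this list or in those below.

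Of 17 Wnt ligand genes kept, 6 had a rho of at least 0.5 and 2 of -0.5 or less, against 21.0% and 17.2% of all genes. Wnt3 (0.84, at most 3.47 TPM), Wnt8a (0.77, at most 0.69 TPM) and Wnt11 (0.66, 0.76 to 11.8 TPM) were highest, and Wnt9a (-0.63), Wnt2b (-0.50) and Wnt7a (-0.32) lowest. Wnt3 was also at 0.83 in the 13 Epcam-rich tumors, where Wnt9a stood at -0.13. The medians of Wnt3, Wnt8a and Wnt3a (rho 0.60) were 0.06, 0.045 and 0.12 TPM, so the limit of the filter holds for them. Of 15 Frizzled receptors and coreceptors, 2 passed upward, Fzd10 (0.69) and Fzd3 (0.51), and Fzd4 passed downward (-0.72), against the same shares. In the 13 tumors 0 of 15 passed upward, with Fzd10 at 0.21 and Fzd3 at -0.05, and 4 passed downward, Fzd7 (-0.68), Lrp5 (-0.59), Fzd8 (-0.57) and Fzd4 (-0.51), against 13.7% and 11.8% of all genes.

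The R-spondins, ligands of Lgr5, all had a negative rho over 18 tumors: Rspo2 -0.77 (at most 4.90 TPM), Rspo1 -0.61 (0.46 to 47.9 TPM), Rspo4 -0.41 and Rspo3 -0.28. Rspo1 was at -0.70 in the 13 Epcam-rich tumors. The related receptors Lgr4 (0.72, 5.66 to 57.5 TPM) and Lgr6 (0.40) were positive over 18 tumors and stood at 0.42 and 0.32 in the 13. Among 11 other secreted antagonists, 3 passed upward and 0 downward, against 21.0% and 17.2% of all genes. The 3 were Dkk4, Dkk1 (0.59, at most 0.18 TPM) and Sostdc1 (0.53). The medians of Dkk4 and Dkk1 were 0.0 and 0.01 TPM, so the limit of the filter holds for them too. Dkk1 and Dkk4 were also counted among the other Wnt targets above. Frzb (-0.44) and Dkk3 (-0.40) were lowest. In the 13 tumors 4 passed upward and 3 downward, against 13.7% and 11.8% of all genes. Sfrp1 was among the latter 3 (-0.65), and Sostdc1 stood at -0.15.

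In the transduction core, 7 of 23 genes had a rho of at least 0.5 and 1, Btrc of the beta-catenin ubiquitin ligase (-0.73), of -0.5 or less, against 21.0% and 17.2% of all genes. Tle3, a Groucho corepressor that binds TCF/LEF factors, was at 0.91 (24.5 to 83.1 TPM), Gsk3a, a kinase of the destruction complex, at 0.77 and Tcf7, a TCF/LEF factor, at 0.71. In the 13 Epcam-rich tumors Tle3 stood at 0.85 and Tcf7 at 0.83. Ctnnb1, the beta-catenin gene, was at 0.60 over 18 tumors and 0.02 in the 13. RNA levels do not show whether beta-catenin protein was stabilized.

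The genes whose levels ran most like the mean of the 10, standardized over 18 tumors, were in part hair genes. By Spearman's rho among 12371 genes they were Gdpd3, a phosphodiesterase gene (0.93), Crym, the crystallin mu gene (0.89), Rnf227 (0.89), Tchh (0.89), the hair keratin Krt86 (0.89), Sp6, a zinc finger factor of ectodermal organs and of the Sp5 family (0.88), Psors1c2 (0.87), Mindy1 (0.87), S100a3, a calcium-binding protein gene of the hair cuticle (0.86), and the hair keratin Krt83 (0.86). Krt83 and Krt86 are close copies, so reads may be shared between them. This mean had a rho of 0.85 with the hair keratin level.

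Single genes had different neighbors. Axin2 ran most like Rerg (rho 0.93, 0.97 in the 13) and Gata2 (0.88), Nkd1 like Krt86 (0.94) and Tcf7 (0.89), and Notum like Gata2 (0.88) and Acp6 (0.87). Wif1 ran like Syt9 (0.92) and Dlx3, a homeobox gene of hair and bone (0.91), and Apcdd1 like Clic5 (0.88) and Notum (0.86). Lgr5 was closest to Rai2 (0.88) and Dcp1b (0.87), Rnf43 to Gk5 (0.98) and Bcl2l14 (0.98), and Znrf3 to Jmy (0.94) and Aldh4a1 (0.91). Among genes averaging 1 log2 CPM or more, which leaves out Sp5, Lef1 was closest to Slco5a1 (0.91) and Ap1b1 (0.84). Sp5 was closest to Lef1 (0.86) and Rps19bp1 (0.84), so Sp5 was nearer to Lef1 than Ap1b1 was. All values are over 18 tumors unless stated.

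Between the genotypes, none of the 10 genes passed the edgeR threshold. The quasi-likelihood test of 14 Cbfb(het) against 3 Cbfb(wt) tumors called 0.0% of 18475 genes, 0 of them, at an adjusted p under 0.05, while 623 had an unadjusted p under 0.05 and DESeq2 also called 0, with 932 such genes. Of the 10, 7 had a positive log2 fold change and 3 a negative one, where 9833 of the 18475 genes tested were positive. The median was 0.32 over the 10 and 0.03 over all genes tested. None of the 10 had an unadjusted p under 0.05. Notum stood at 1.57 ± 1.47 (SE), Wif1 at 0.90 ± 1.45, Nkd1 at 0.66 ± 0.82, Axin2 at 0.39 ± 1.01, Apcdd1 at 0.34 ± 0.78, Znrf3 at 0.29 ± 0.56 and Lef1 at 0.29 ± 0.96. Lgr5 stood at -0.12 ± 0.91, Rnf43 at -0.15 ± 0.96 and Sp5 at -1.37 ± 1.23. For Rnf43 and Lgr5 the fitted fold change and the mean log2 CPM differ in sign: Rnf43 averaged 4.59 ± 1.64 (SD, n = 14) in Cbfb(het) and 3.49 ± 3.68 (SD, n = 3) in Cbfb(wt), and Lgr5 averaged 3.40 ± 1.48 and 3.25 ± 2.09. Each adjusted p was 0.999 (edgeR, Benjamini-Hochberg). The SE was larger than the difference for 8 of the 10 genes, all but Notum and Sp5.

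The 3 Cbfb(wt) tumors were of 3 kinds, and each decided some of the directions. Cbfb(wt) 3 was of the highest hair keratin run, Cbfb(wt) 2 was Epcam-low with the highest Sp5 of the 18, and Cbfb(wt) 1 was Epcam-rich with the lowest Lef1 and Nkd1 on the log2 CPM scale. Without Cbfb(wt) 3, Lgr5 turned to 1.65 and Rnf43 to 1.71, and Wif1 stood at 3.24 and Axin2 at 1.58. Without Cbfb(wt) 2, Sp5 turned to 0.57, Znrf3 to -0.06, and Notum stood at 2.92 and Lef1 at 1.42. Without Cbfb(wt) 1, Axin2 turned to -0.16, Apcdd1 to -0.14, Znrf3 to -0.02 and Lef1 to -0.27. In these fits, too, no gene was called. Luminal marker sums ran from 153 to 5997 TPM in Cbfb(het), from 121 to 4543 in Cbfb(wt) and stood at 4046 in Cbfb(homo). Other lists differed more, with no gene called: adipocyte markers had 7 of 7 fold changes positive (median 5.16, 6 with an unadjusted p under 0.05), B and plasma cell markers 3 of 3 (median 3.97, all 3 so), and skeletal muscle markers 4 of 5 (median 5.77, 0 so). Hair keratin and root sheath genes had 21 of 21 positive (median 1.79, 0 so). Among all 18475 genes tested, 9833 were positive. The hair genes closely followed the hair keratin level (median rho 0.91), so their 21 signs are not separate observations. The part of these cell types and hair genes in the fold changes was not tested.

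The single Cbfb(homo) tumor lay within the range of the other 17 for each of the 10 genes. It ranked 16 of 18 for Axin2, Nkd1 and Notum, 14 for Apcdd1 and Znrf3, 13 for Wif1 and Rnf43, 11 for Sp5, 7 for Lef1 and 5 for Lgr5. Its Epcam was 331 TPM, and its hair keratin level, 2.06 log2 CPM, was in the second run from the bottom.

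**Figure D5:**
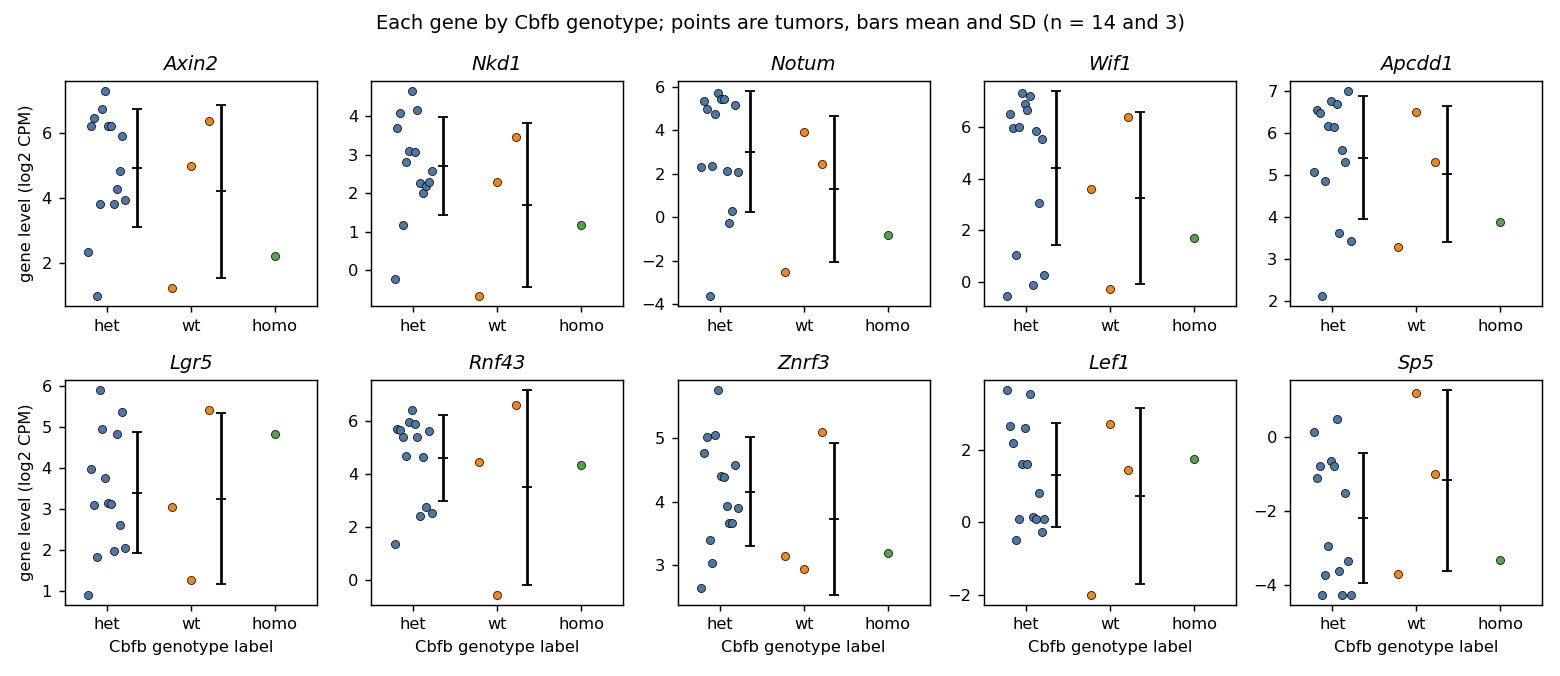
Level of each gene in log2 CPM by Cbfb genotype label, one point per tumor, with mean and SD beside Cbfb(het) (n = 14) and Cbfb(wt) (n = 3) and a single Cbfb(homo) tumor. The Cbfb(wt) points spread widely, for Rnf43 from -0.56 to 6.61, although 2 of the 3 lie close together for Znrf3 (2.94 and 3.15).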

How the data were processed

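RNA of 18 tumors was sequenced from TruSeq stranded mRNA libraries, per the labels' protocols. The authors deposited 1 RSEM gene table per tumor, with expected counts (estimated reads per gene, not normalized) and TPM (scaled by gene length to 1 total per tumor). Alignment tools listed in the submitters' processing notes are STAR 2.7.0f and RSEM 1.3.1, with mm10 as the build. No strand setting is given in the sources read. Positions are from a GENCODE annotation of GRCm38 that holds all 55450 gene IDs.

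Expected counts were rounded to whole numbers. Cbfb(het) and Cbfb(wt) tumors were compared with edgeR 4.0.16 in R 4.3.3 (filterByExpr, TMM factors, robust quasi-likelihood F-test, Benjamini-Hochberg over genes, threshold 0.05), with DESeq2 1.42.0 as an alternative. The SE is the log2 fold change divided by the square root of F. The series' design text names separate mice, the labels name no batch, and p-values measure the spread between these tumors. Log2 CPM used a prior count of 2. Rank relations used scipy 1.17.1 over 20328 genes kept by filterByExpr, run on all 18 tumors with the Cbfb groups. The smallest group, Cbfb(homo), has 1 tumor, so enough counts in 1 tumor kept a gene. Some genes kept were at 0 in most tumors, as Corin in 13. The named genes are the 10, Tchh and Krt71, the list members of highest and lowest rho, and the genes of nearest pattern (averaging 1 log2 CPM or more, unnamed models and antigen receptor segments passed over). Myc, Ccnd1, Ctnnb1, Rspo3, Fzd7, Fzd8, Lrp5, Sfrp1 and marker genes were named after their values were seen. The members and lists were chosen with earlier results of these data known.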

Additional observations from a re-analysis of the deposited data

How the results depend on the processing

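Without a filter on low counts, and with all 18 tumors in 1 fit, edgeR called 1 gene between Cbfb(het) and Cbfb(wt), none of the 10, in place of 0. RLE factors, DESeq2, each Cbfb(wt) tumor left out in turn, and Cbfb(het) 10 left out gave 0. Leaving out Cbfb(wt) 1, 2 or 3 or Cbfb(het) 10, the only tumors left out in turn, the log2 fold change ran from -0.16 to 1.58 for Axin2, -0.14 to 1.26 for Apcdd1, -0.055 to 1.34 for Znrf3, -0.27 to 1.42 for Lef1, -1.94 to 0.57 for Sp5, -0.64 to 1.65 for Lgr5 and -0.72 to 1.71 for Rnf43. Nkd1 (0.13 to 1.68), Notum (1.00 to 2.92) and Wif1 (0.33 to 3.24) were positive in these 4 fits. No paired analysis was possible because the labels give every tumor the repeat number 1, and the tumor numbers used here only name tumors.

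The count of 8 genes with a rho of at least 0.5 was 7 to 9 with Tchh or Krt71 alone, TPM, no TMM factors and Pearson's r. It was also 7 to 9 with Cbfb(het) alone, the 2 most distant tumors left out, and Cbfb(het) 10 or Cbfb(wt) 2 left out. The same held with genes averaging 1 log2 CPM or more as background, and in the 13 Epcam-rich tumors. The share of all genes was 12.8% to 22.9% in these settings. Apcdd1 and Lgr5 lay near the threshold in some: Apcdd1 at 0.49 with Krt71 alone, and Lgr5 at 0.48 in Cbfb(het) alone. With TPM they stood at 0.501 and 0.503. The count was 4 in the 7 tumors of the highest run, against 19.9% of all genes. There rho turned to -0.11 for Axin2, -0.14 for Wif1, -0.50 for Lgr5, -0.43 for Rnf43 and -0.036 for Znrf3. The cause was not tested, and there were fewer tumors. The last 3 alternatives of samples (13 tumors, 7 tumors, without Cbfb(wt) 2) and that of the background were chosen after seeing the data. Depth limits Sp5, Dkk1, Dkk4 and Cdx1, which had few counts.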

Other observations

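Regulators of hair follicle development ran along the hair keratin level as well. Of 14 such genes, 11 had a rho of at least 0.5 over 18 tumors and 6 in the 13 Epcam-rich tumors, against 21.0% and 13.7% of all genes. Dlx3, a homeobox gene of hair (0.95, 0.21 to 50.5 TPM), Shh, the ligand made by the hair matrix (0.92, at most 6.05 TPM), and Foxn1, the factor lost in nude mice (0.83), were highest, and stood at 0.92, 0.90 and 0.73 in the 13. Vdr, the vitamin D receptor gene (0.42), Edaradd (0.37) and Msx1 (-0.11) were lowest. All 22 hair keratin and root sheath genes kept had a rho of at least 0.75, but Tchh and Krt71 among them define the level. Several others were low outside the tumors rich in hair keratins, as Krt35 (median 0.24, at most 193 TPM). The filter kept a gene with enough counts in 1 tumor, so such genes could pass through those tumors alone. Their high rho is therefore no separate evidence. The same holds for Shh, with a median of 0.08 TPM.

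The TCF/LEF core sequences were also searched in the 250 bases before the starts of hair keratin and root sheath genes. Of 15 with a RefSeq window, 6 held a match (40%), and 3 held more than 1, against 14.8% and 1.43% of all start sites. They were Krt25, Krt31, Krt32, Krt33b, Krt34 and Tchh. The windows of these genes had a median GC content of 42.8%, against 52.4% over all start sites. Krt31, Krt32, Krt33b and Krt34 are neighbors in 1 keratin cluster on chromosome 11, and their promoters are related sequences. Whether the matches are used was not measured here.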
